A study of Mus musculus with 18 samples.

Results

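The 7 genes followed here mark basophils and mast cells and were read across the 18 spleen samples of the study: Prss34, Mcpt8, Cpa3, Fcer1a, Ms4a2, Gata2 and Hdc. They were picked by gene name, with earlier results of these data known. These 7 are a part of the 47729 reference genes listed in every sample. The study gave mice liposomal complexes (LPPC, a lipid vesicle that carries polyethylene glycol and polyethylenimine) coated with membrane proteins of dendritic cells (MP). Splenocyte RNA was then sequenced to ask how antibodies added to the complex change gene expression in vivo. LMA mice (6 samples) received LPPC/MP and then LPPC/MP with an antibody to CD28, a receptor that costimulates T cells. LMS mice (6 samples) received LPPC/MP and then LPPC/MP with an antibody to CD152, the inhibitory receptor also called CTLA4. LM mice (3 samples) were immunized and boosted with LPPC/MP alone, and N samples (3) are labelled naive. All mice are labelled female C57BL/6J of 4 to 6 weeks. LMA and LMS mice had further injections and were sampled later than LM mice, so the antibody, the added doses and the time cannot be told apart, and the labels do not say which samples had 1 and which had 2 of these injections. Nothing in the labels says that the samples of a group are separate animals, so p-values measure the spread between these samples, which may be technical. In RNA of a whole spleen suspension, fewer cells of a type and less RNA per cell cannot be told apart.

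Basophils are rare granulocytes of blood and spleen, and mast cells are their tissue-resident counterparts. Both bind IgE through the high-affinity receptor FcεRI, whose cross-linking releases histamine, proteases, lipid mediators and cytokines. In the mouse, Mcpt8 and Prss34 encode granule serine proteases used as basophil markers (mMCP-8 and mMCP-11), Cpa3 encodes a carboxypeptidase of both cell types, Fcer1a and Ms4a2 encode the α and β chains of FcεRI, Gata2 is a transcription factor needed for both lineages, and Hdc makes histamine from histidine and is also used by immature neutrophils.

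The promoters of 4 members are shown because the RNA of the first pair, the basophil proteases, moved together between the groups, while that of the second pair, the receptor chains, stayed low. They are the RefSeq sequences on GRCm38.p6 from 250 bases before to 50 after the annotated start, written 5′ to 3′ on the strand of the gene. Capitals mark the GATA motif, searched as AGATAA or TGATAA and as AGATAG or TGATAG on both strands.
Prss34 (chr17:25298144-25298443, plus strand): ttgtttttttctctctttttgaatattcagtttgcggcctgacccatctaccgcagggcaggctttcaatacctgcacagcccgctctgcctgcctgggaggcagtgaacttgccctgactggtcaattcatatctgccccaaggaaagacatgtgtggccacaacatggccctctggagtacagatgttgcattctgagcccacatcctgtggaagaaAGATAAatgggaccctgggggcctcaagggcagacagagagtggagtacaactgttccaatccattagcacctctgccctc
Mcpt8 (chr14:56085148-56085447, minus strand): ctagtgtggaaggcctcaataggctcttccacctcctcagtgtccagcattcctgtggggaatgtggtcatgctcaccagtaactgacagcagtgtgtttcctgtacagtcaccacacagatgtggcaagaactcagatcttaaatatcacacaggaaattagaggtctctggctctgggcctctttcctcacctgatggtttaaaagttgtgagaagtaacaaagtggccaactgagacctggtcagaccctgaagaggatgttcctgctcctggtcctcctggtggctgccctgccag
Fcer1a (chr1:173227180-173227479, minus strand): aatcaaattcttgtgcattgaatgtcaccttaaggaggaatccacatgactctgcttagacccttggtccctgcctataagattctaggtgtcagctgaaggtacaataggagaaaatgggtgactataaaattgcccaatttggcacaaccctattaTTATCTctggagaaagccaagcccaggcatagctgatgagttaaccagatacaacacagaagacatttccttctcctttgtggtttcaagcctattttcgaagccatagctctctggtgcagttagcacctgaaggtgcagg
Ms4a2 (chr19:11623670-11623969, minus strand): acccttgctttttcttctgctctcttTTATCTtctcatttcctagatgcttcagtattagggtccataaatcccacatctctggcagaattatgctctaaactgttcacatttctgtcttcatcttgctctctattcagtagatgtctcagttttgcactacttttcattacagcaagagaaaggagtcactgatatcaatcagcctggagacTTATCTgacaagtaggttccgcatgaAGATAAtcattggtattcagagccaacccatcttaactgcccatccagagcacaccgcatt

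The motif was found in 29.8% of all 32851 promoters of this table. It was present in the promoters of Prss34, Cpa3, Fcer1a, Ms4a2 and Hdc, 5 of the 7 members. Prss34 has 1 match, whose first base lies at -31 from the start, and Cpa3 has 1 at -46. Ms4a2 has 3 matches, at -224, -37 and -11, and Fcer1a has 1 at -92. No match was in the window of Mcpt8 or in either of the annotated promoters of Gata2. The window of Mcpt8 holds 2 copies of TGTGGT, a core recognized by RUNX factors, on either strand, and 16.8% of all promoters hold 1 or more.

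Before the levels of the members, the samples themselves need a description, since they do not fall only along the treatment labels. N 1, N 2, LMS 2 and LMS 5 had no Eif2s3y, a Y-linked gene, and 48.1 to 59.9 FPKM of Xist (FPKM, the deposited unit, is the read fragments of a gene scaled to its length and to the size of the library). The other 14 samples had 31.0 to 43.0 FPKM of Eif2s3y and at most 7.20 FPKM of Xist, although all are labelled female. The same 4 samples held 55.5 to 68.8 FPKM of the T cell gene Cd3e, against at most 15.6 FPKM elsewhere, and 368 to 518 FPKM of the B cell gene Cd79a, against at most 107 FPKM. N 3 had the lowest Cd79a, 9.60 FPKM, and 0.84 FPKM of Cd3e. Genes of macrophages and monocytes were split. Lyz2 and Cd14 ran the other way, at 267 to 307 and 4.69 to 5.76 FPKM in those 4 samples and 1386 to 2888 and 149 to 191 FPKM in the other 14. Adgre1, Csf1r and Cd68 were also lower in those 4 than in any other sample. In contrast, C1qa, C1qb, C1qc, Ccr2, Marco and Vcam1 were higher there than in any other sample. C1qa, for one, had 61.25 to 68.91 FPKM, against at most 19.97 FPKM in the other 14. Ly6c2 overlapped. Hemoglobin genes made up 16.8% to 18.4% of the summed FPKM in N 2, LMS 2 and LMS 5 and at most 1.85% in the others. The sequence aligned per sample was 5.21 to 7.92 gigabases. Results are therefore also given for a first set that leaves out N 1, N 2, LMS 2 and LMS 5. A second set leaves out N 3 and LMS 1, 3, 4 and 6. Both were chosen after seeing the data. In the first set N is the single sample N 3, assumed to vary like the other groups.

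Prss34, on chromosome 17 of mm10 (chr17:25298394-25300161, plus strand), had 6.78 FPKM in the lowest, 7.12 in the median and 7.76 in the highest of the 6 LMA samples. The LMS samples had 0.21, 0.40 and 1.20 FPKM by the same measures. LM samples had 4.21, 4.72 and 4.75 FPKM, and N samples had 0.27, 0.90 and 0.00 FPKM. The 6 LMA samples were thus the highest of all, the 3 LM samples followed without overlap, and no LMS or N sample reached the lowest LM sample. The mean was 7.17 ± 0.38 FPKM in LMA (SD, n = 6), 0.50 ± 0.36 in LMS (n = 6), 4.56 ± 0.30 in LM (n = 3) and 0.39 ± 0.46 in N (n = 3).

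Mcpt8, on chromosome 14 (chr14:56082166-56085216, minus strand), followed the same order. LMA samples had 6.75 FPKM in the lowest, 8.70 in the median and 11.7 in the highest. LMS samples had 0.22, 0.40 and 2.40 FPKM, LM samples had 5.04, 4.92 and 5.60 FPKM, and N samples had 0.47, 1.69 and 0.00 FPKM. The groups LMA and LM again did not overlap with each other or with LMS and N. Such gaps, here and below, stand beside those of all 11436 genes tested. Every LMA sample was above every N sample for 11.8% of genes (below for 18.5%) and above every LMS sample for 12.4% (below for 17.5%). Every LM sample was above every N sample for 13.2% (below for 20.4%) and above every LMS sample for 13.6% (below for 19.2%). Within LMA the highest Mcpt8 was in LMA 4 and the highest Prss34 in LMA 3.

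Cpa3, on chromosome 3 (chr3:20215620-20242181, minus strand), varied less. It had 1.64, 1.88 and 2.69 FPKM in the lowest, median and highest LMA sample, against 0.27, 0.46 and 1.89 FPKM in LMS. LM samples had 1.35, 1.28 and 1.32 FPKM, and N samples had 0.87, 1.54 and 0.00 FPKM. LMS 2 and LMS 5 lay within the LMA range, at 1.89 and 1.73 FPKM, while the other 4 LMS samples had at most 0.52 FPKM.

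The 2 receptor chains were low in every sample. Fcer1a (chr1:173221284-173227214, minus strand) had 0.56, 0.78 and 1.07 FPKM in the lowest, median and highest LMA sample, and 0.00, 0.21 and 0.47 FPKM in LMS. LM samples had 0.23, 0.45 and 0.37 FPKM, and N samples had 0.57, 0.46 and 0.00 FPKM. Every LMA sample was above every LMS and LM sample, but the lowest LMA sample was below N 1. Ms4a2 (chr19:11615523-11623719, minus strand) had 0.36, 0.46 and 0.72 FPKM in LMA and 0.00, 0.07 and 1.07 FPKM in LMS. LM samples had 0.20, 0.29 and 0.45 FPKM of Ms4a2 and N samples had 0.33, 1.10 and 0.00 FPKM, so its highest values were in N 2 and LMS 5. With mean levels of 0.45 and 0.40 FPKM over the 18 samples, both genes fell under the filter of the test, a mean of 0.5 FPKM. The other 5 members passed it.

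Gata2 (chr6:88193891-88207032, plus strand) was highest in the 4 samples that lack Y-linked transcripts, at 1.02 to 1.64 FPKM. LMA samples had 0.33, 0.72 and 0.94 FPKM in the lowest, median and highest, LMS samples had 0.07, 0.27 and 1.22 FPKM, LM samples had 0.33, 0.64 and 0.29 FPKM and N samples had 1.24, 1.64 and 0.02 FPKM. Hdc (chr2:126593667-126619299, minus strand) had 4.47, 5.37 and 6.32 FPKM in LMA and 0.62, 1.18 and 3.14 FPKM in LMS. LM samples had 3.45, 3.89 and 3.51 FPKM of Hdc, and N samples had 4.59, 3.71 and 0.07 FPKM. For Hdc every LMA sample was above every LMS and LM sample, but LMA 2 was below N 1. N 3 had the lowest value of all 18 samples for 5 members and was listed at 0 for Fcer1a and Ms4a2, as was LMS 1.

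**Figure D1:**
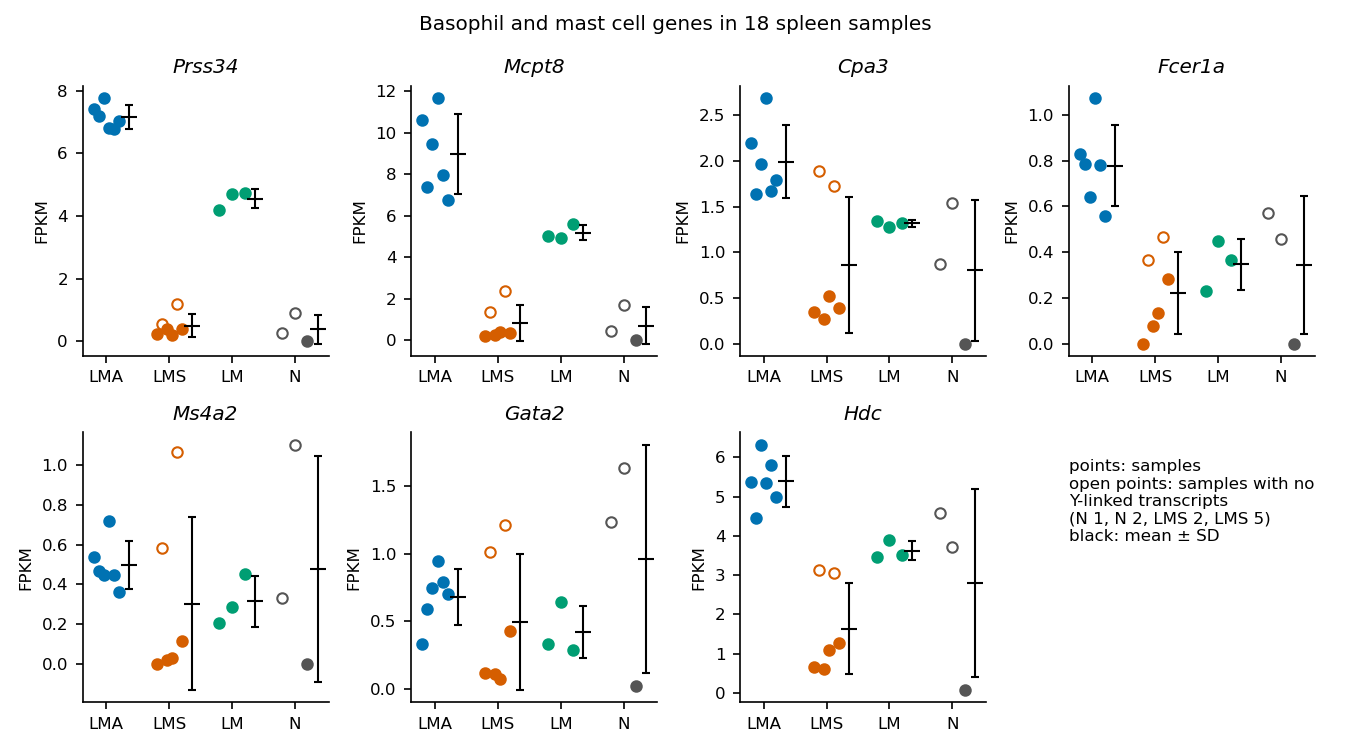
Each panel shows 1 member, with FPKM on the y axis and the groups LMA, LMS, LM and N on the x axis; each point is a sample, open points are N 1, N 2, LMS 2 and LMS 5, and black marks are the mean ± SD. Prss34 and Mcpt8 lie at 4.21 FPKM or more in every LMA and LM sample and at 2.40 FPKM or less in every LMS and N sample, whereas the open points of Gata2 lie above every LMA sample.

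LMA was compared with N, to ask what LPPC/MP followed by LPPC/MP/CD28 changed against no treatment. Prss34 and Mcpt8 rose, and Cpa3 rose less. On the scale of log2(FPKM + 0.5), used for every difference here and which understates the change of low genes, Prss34 was higher by 3.24 ± 0.27 (SE, limma, adjusted p = 4.28e-07) and Mcpt8 by 3.19 ± 0.44 (adjusted p = 6.14e-05). Cpa3 was higher by 1.14 ± 0.41 (adjusted p = 0.042), a call lost on leaving out any 1 of 11 samples, N 1, N 3 and every LM and LMA sample (adjusted p = 0.0527 to 0.204, with 0.56 as the difference without N 3). It was also lost with sample weights (0.47, adjusted p = 0.289) and with no filter on low values (adjusted p = 0.0789). Hdc differed by 1.35 ± 0.54 (adjusted p = 0.0642), and by 1.92 without N 1 (adjusted p = 0.0251) or 1.78 without N 2 (adjusted p = 0.0463). It was also past the threshold with quantile normalization (adjusted p = 0.03) and with assembled loci (0.0397). Gata2 differed by -0.09 ± 0.43 (adjusted p = 0.869). The 3 calls of 5 tested members stand beside 35.4% of all 11436 genes called in this comparison.

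LM was compared with N, to ask what LPPC/MP alone changed. The same 2 proteases rose, Prss34 by 2.64 ± 0.31 (limma, adjusted p = 2.77e-05) and Mcpt8 by 2.48 ± 0.51 (adjusted p = 0.00254). These were 2 of 5 tested members, against 25% of all genes tested. Cpa3 differed by 0.70 ± 0.48 (adjusted p = 0.288), Hdc by 0.84 ± 0.63 (adjusted p = 0.333) and Gata2 by -0.45 ± 0.50 (adjusted p = 0.507). Without N 3, which leaves only N 1 and N 2 in N, Gata2 differed by -1.09 (adjusted p = 0.0432). In that fit 6657 of the 11436 genes were called. A fit of the LM and N samples alone called neither protease, with adjusted p = 0.0693 for Prss34 and 0.103 for Mcpt8.

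LMA was compared with LMS, which differ in the antibody on the complex. In all, 4 of the 5 tested members were higher in LMA, against 30.7% of all genes called in either direction. Prss34 was higher by 3.0 ± 0.22 (limma, adjusted p = 6.84e-08), Mcpt8 by 3.01 ± 0.36 (adjusted p = 1e-05) and Hdc by 1.63 ± 0.45 (adjusted p = 0.0105). Cpa3 was higher by 1.03 ± 0.34 (adjusted p = 0.0291), but by 0.10 (adjusted p = 0.609) in the set that leaves out N 3 and LMS 1, 3, 4 and 6. This call was also lost on leaving out any 1 of LMA 1, LMA 4, LMS 1, LMS 3, LMS 4 and LMS 6 (adjusted p = 0.0549 to 0.0646), with a pseudocount of 0.1 FPKM (0.0681), with no filter on low values (0.0573) and with assembled loci in place of the listed gene (0.0545). Gata2 differed by 0.38 ± 0.35 (adjusted p = 0.457). With no filter on low values, which called 15.8% of 21620 genes, Fcer1a was higher by 0.85 ± 0.19 (adjusted p = 0.00554) and Ms4a2 differed by 0.45 ± 0.30 (adjusted p = 0.44).

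LMS was compared with LM, to ask what LPPC/MP/CTLA4 changed after LPPC/MP. Prss34 fell by 2.40 (SE 0.27, limma, adjusted p = 1.3e-05) and Mcpt8 fell by 2.30 (SE 0.44, adjusted p = 0.00134). These 2 of 5 tested members stand beside 21.3% of all genes. Hdc differed by -1.12 ± 0.54 (adjusted p = 0.174), Cpa3 by -0.58 ± 0.41 (adjusted p = 0.375) and Gata2 by -0.02 ± 0.43 (adjusted p = 0.985). Every LMS sample had less Hdc than every LM sample, as with 13.6% of all genes tested. The highest LMS value was 3.14 FPKM in LMS 2 against 3.45 FPKM in LM 1. Leaving out N 3, which enters the shared estimate of the spread, brought Hdc past the threshold (-1.12, adjusted p = 0.0196).

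LMS was compared with N, and none of the 5 tested members was called by limma, as with 0% of all genes. At an unadjusted p under 0.05, 506 of the 11436 genes differed and none of these 5. The differences were 0.24 for Prss34 (95% interval -0.34 to 0.82), 0.18 for Mcpt8 (-0.77 to 1.12), 0.11 for Cpa3 (-0.76 to 0.99), -0.47 for Gata2 (-1.39 to 0.44) and -0.28 for Hdc (-1.43 to 0.88). Both groups hold samples of both kinds described above. Leaving out N 3 called Gata2 (-1.10, adjusted p = 0.0451) and Hdc (-1.29, adjusted p = 0.0389), both lower in LMS.

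LMA was compared with LM, to ask what LPPC/MP/CD28 changed beyond LPPC/MP. Every LMA sample was above every LM sample for Prss34, Mcpt8, Cpa3, Fcer1a and Hdc. These are 5 of 7 members and 4 of the 5 that passed the filter, against 2.43% of all genes tested. The members were chosen with earlier results of these data known, so this count is a description only. The ratio of the group means was 1.57 for Prss34, 1.73 for Mcpt8, 1.52 for Cpa3, 2.24 for Fcer1a and 1.49 for Hdc. Ms4a2 and Gata2 overlapped, with ratios of 1.57 and 1.63. In the limma fit of all samples no member was called, as with 0% of all genes, of which 131 had an unadjusted p under 0.05. Prss34 alone of the 5 was among those, at 0.60 ± 0.27 (adjusted p = 1). A fit of the LMA and LM samples alone called 0.42% of genes, among them Prss34 (adjusted p = 0.0118).

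**Figure D2:**
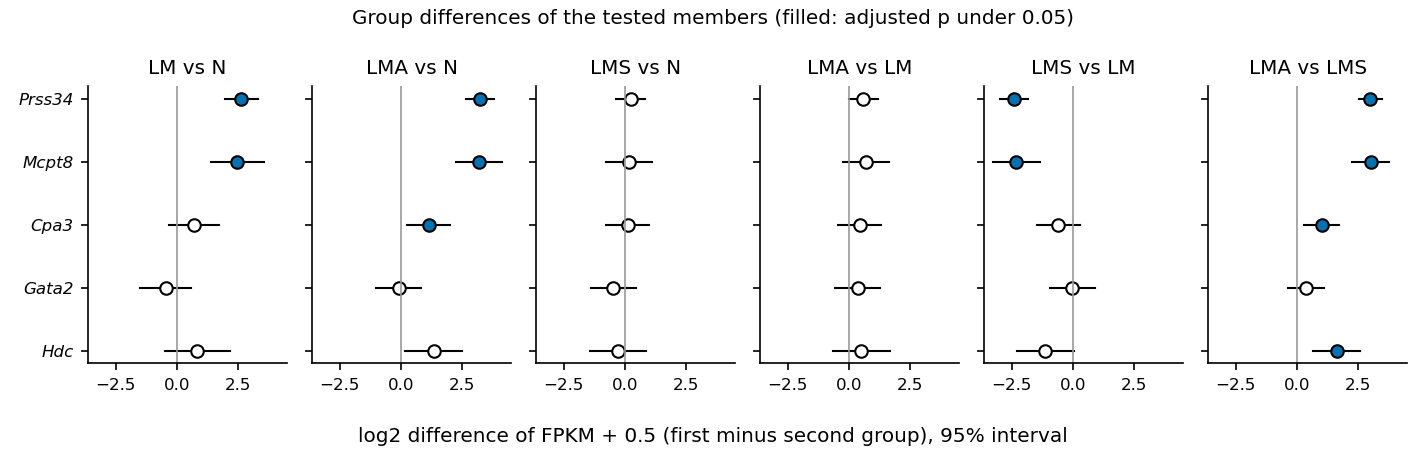
Each panel is 1 comparison, with the log2 difference of FPKM + 0.5 on the x axis (first named minus second named group) and the 5 tested members on the y axis; bars are 95% intervals and filled points have an adjusted p under 0.05. Prss34 and Mcpt8 lie between 2.48 and 3.24 where LM or LMA is set against N and at 3.0 and 3.01 where LMA is set against LMS, and Gata2 lies across 0 in all 6 comparisons.

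The rises of the 2 basophil proteases held in both sets of samples. Without N 1, N 2, LMS 2 and LMS 5, Prss34 differed from N by 3.34 in LM and 3.94 in LMA, and LMA exceeded LMS by 3.24. Mcpt8 was higher by 3.51, 4.22 and 3.52 in the same comparisons. Without N 3 and LMS 1, 3, 4 and 6, these values were 2.28, 2.89 and 2.51 for Prss34 and 1.96, 2.67 and 2.0 for Mcpt8. In the second set each of these had a limma adjusted p under 0.05. In the first, N is a single sample, so only differences are given against it. The calls of all genes were far more numerous in these sets than in the whole, 60.3% for LM against N, 61.6% for LMA against N, 68.1% for LMS against LM and 72.1% for LMA against LMS in the first, and 76.8%, 79.9%, 75.9% and 78.8% in the second. With sample weights, which lower the part of samples that vary most, the share of all genes called was also higher. The weights were 0.0266 for N 3, 0.0316 for LMS 2, 0.0318 for LMS 5, 0.11 for N 1 and 0.479 for N 2. The other samples had 1.99 to 4.12. Weighted LMS against N thus set mainly LMS 1, 3, 4 and 6 against N 2 and N 1, samples of different kinds. In that fit 2 of 5 members were called in LMA against N beside 60.8% of all genes, 2 in LM against N beside 58.9%, 5 in LMA against LMS beside 72.8%, 5 in LMS against LM beside 69.3%, 4 in LMS against N beside 59.6% and 2 in LMA against LM beside 1.43%.

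The other members depended on which N and LMS samples were set against LM and LMA. Against N 3 alone, Hdc was higher by 2.86 in LM and 3.37 in LMA, whereas against N 1 and N 2 it differed by -0.17 in LM (adjusted p = 0.23) and rose by 0.34 in LMA (adjusted p = 0.0152). Cpa3 was higher by 1.86 in LM against N 3, and differed by 0.12 (adjusted p = 0.574) against N 1 and N 2. Gata2 changed direction, being higher in LM by 0.81 and in LMA by 1.17 against N 3. Against N 1 and N 2 it was lower in LM by a difference of -1.09 (limma, adjusted p = 9.02e-04) and in LMA by one of -0.72 (adjusted p = 0.00587). Between LMA and LM, Prss34 was called in the first set (adjusted p = 0.00896), beside 0.577% of all genes, and no member was called in the second, beside 0.0787%. Between LMS and N, 3 members were called in the first set, Prss34, Cpa3 and Hdc, each higher in LMS, beside 5.27% of all genes, and none in the second, beside 0.0175%.

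Levels of other cell types moved with these sets. At a like level of the B cell gene Cd79a, 71.8 to 104 FPKM in LMS 3, 4 and 6 and 75.3 to 107 FPKM in LM, Prss34 was 0.21 to 0.40 FPKM in those LMS samples and 4.21 to 4.75 FPKM in LM. Hdc was 0.62 to 1.27 FPKM in the same LMS samples and 3.45 to 3.89 FPKM in LM. These samples, picked for their Cd79a, were not alike in other cell markers, since Lyz2 was 2589 to 2661 FPKM in those LMS samples and 1386 to 1441 FPKM in LM, and the 8 T cell genes summed to 42.2 to 67.4 FPKM and 90.2 to 119 FPKM. LMA had 64.0 to 98.3 FPKM of Cd79a. The summed level of the 8 T cell genes was 55.8 to 96.0 FPKM in LMA, 31.9 to 389 in LMS, 90.2 to 119 in LM and 6.10 to 623 in N, and that of the 7 B cell genes was 185 to 282 FPKM in LMA, 137 to 1273 in LMS, 219 to 307 in LM and 26.7 to 1629 in N. The part of these cells in the levels of the members was not tested.

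**Figure D3:**
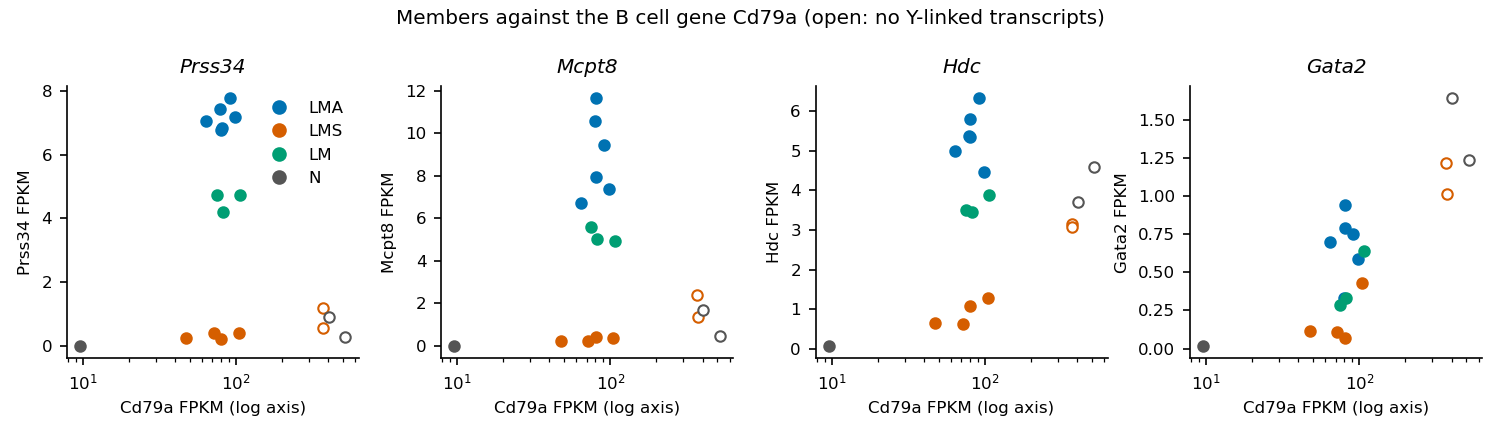
Prss34, Mcpt8, Hdc and Gata2 in FPKM are plotted on the y axis against the B cell gene Cd79a in FPKM on a log x axis, 1 point per sample, colored by group, with open points for N 1, N 2, LMS 2 and LMS 5. Those 4 samples lie at 368 to 518 FPKM of Cd79a; there Prss34 is at most 1.20 FPKM, below every LM and LMA sample, while Gata2 is at least 1.02 FPKM, above them all.

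The balance between members differed as well. Prss34 was 6.36 to 12.6 times Fcer1a in LMA and 10.5 to 18.4 times in LM, both in FPKM. In LMS the ratio was 1.41 to 5.33 in the 5 samples with any Fcer1a, and it was 0.47 in N 1 and 1.96 in N 2. These ratios are imprecise, since Fcer1a was under the filter, with 0.23 to 0.45 FPKM in LM and at most 0.47 in LMS. Mcpt8 to Prss34 varied less, with ratios of 0.96 to 1.71 in LMA, 1.04 to 1.20 in LM and 0.63 to 2.41 in LMS. Across the 18 samples Prss34 and Mcpt8 had a Pearson correlation of 0.98 on the log2 scale. Prss34 had one of 0.28 with Gata2 and 0.47 with Ms4a2, while Gata2 and Ms4a2 had one of 0.85. Such correlations describe these 18 samples, which share group and cell composition.

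Genes with the most similar pattern to each member were taken as the 3 tested genes with the highest correlation over the 18 samples. For Prss34 these were Ms4a3 (r = 0.99), Ctsg (0.99) and Fcnb (0.98), which neutrophil precursors use. For Mcpt8 they were Ly6g (0.99), a neutrophil surface protein, Cd177 (0.98) and St3gal4 (0.98). For Cpa3 they were Fpr2 (0.98), a formyl peptide receptor, Lrg1 (0.97) and Mmp25 (0.96), and for Hdc Pglyrp1 (0.98), Hp (0.98) and Chil3 (0.98). Fcer1a was most like Osm (0.92), Trib1 (0.92) and Mmp8 (0.91), and Ms4a2 like Atp6v0a1 (0.94), Wwp2 (0.93) and Pram1 (0.92). For Gata2 they were Tigit (0.93), a receptor of T and NK cells, Ifng (0.93) and Arhgdib (0.93). Over the 9 LM and LMA samples alone, the gene most like Cpa3 was Mcpt8 (0.96), and those most like Hdc were Mmp9 (0.97), S100a9 (0.97) and Ltf (0.97), all genes of neutrophils. Over the same 9 samples Dnajb9 (0.98), Ptp4a1 (0.98) and BC117090 (0.95) were most like Prss34, Rel (0.97), Trib1 (0.97) and Trem1 (0.96) most like Mcpt8, and Kdm6a (0.98), Cbr2 (0.96) and Kank3 (0.94) most like Gata2. Chil1 (0.93), Myo1f (0.93) and Mapk13 (0.93) led for Fcer1a, and Myo1f (0.94), Acadsb (0.91) and Gm10644 (0.91) for Ms4a2.

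The granule genes of neutrophil precursors moved with the proteases. All 9 of 9 (Mpo, Elane, Prtn3, Ctsg, Ms4a3, Fcnb, Ltf, Ngp and Camp) were higher in LMA than in N, beside 35.4% of all genes called in either direction. The median difference was 4.54, against -0.13 over all genes. All 9 were also higher in LMA than in LMS (median 3.75, all genes -0.12), beside 30.7% called. The same held for LM against N (median 3.98, all genes -0.11), beside 25%. Ms4a3 had 5.17 to 7.66 FPKM in LMA and 0.12 to 0.54 in LMS, and 3.37 to 4.47 in LM and 0.00 to 0.57 in N. Of 8 genes of mature neutrophils, 4 rose in LMA relative to N, beside 35.4% of all genes called in either direction, and 6 relative to LMS, beside 30.7%, Ly6g among both. Their summed level was 1479 to 2006 FPKM in LMA, 127 to 433 in LMS, 1042 to 1209 in LM and 23.9 to 450.1 in N. S100a8 and S100a9 were the largest parts of this sum, at 501.5 to 721.7 and 888.8 to 1192 FPKM in LMA. Cxcr2 and Csf3r had 7.77 to 8.90 and 23.2 to 27.6 FPKM in N 1, N 2, LMS 2 and LMS 5, against at most 3.75 and 8.46 in LMA. Retnlg and Mmp9 overlapped between those samples and LMA, and S100a8, S100a9, Mmp8 and Ly6g were higher in every LMA sample. The part of neutrophils in the levels of Hdc, Mcpt8 and Prss34 was not tested.

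Of 20 mast cell granule and surface genes, 10 passed the filter. In LMA against N 2 of these were higher and 1 was lower, a share near the 35.4% of all genes called, and the median difference was -0.34, against -0.13 over all genes. The 2 that rose were Srgn, the proteoglycan core of granules in many blood cells, and Ctsg, named above, and Ndst2, a heparin-making enzyme, fell. Kit, the receptor for stem cell factor that mast cells and progenitors carry, had 0.49 to 1.11 FPKM in LMA, 0.53 to 1.01 FPKM in LM and 4.59 to 6.31 FPKM in the 4 samples without Y-linked transcripts. The chymase genes Cma1 and Mcpt4 had at most 0.37 and 0.33 FPKM in LMA and at most 0.20 and 0.39 FPKM in LM. In those 4 samples Cma1 had 1.46 to 2.05 FPKM. Mcpt4 had 0.30 FPKM in N 1 and 1.52 to 2.35 FPKM in N 2, LMS 2 and LMS 5. The tryptase genes Tpsb2 and Tpsab1 had at most 0.12 and 0.02 FPKM in LMA, and Tpsg1 was listed at 0 in all 18 samples. Eosinophil genes summed to 6.52 to 8.12 FPKM in LMA, 2.96 to 62.2 in LMS, 6.17 to 10.4 in LM and 0.56 to 65.8 in N, and 0 of 6 tested were called by limma in any comparison.

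**Figure D4:**
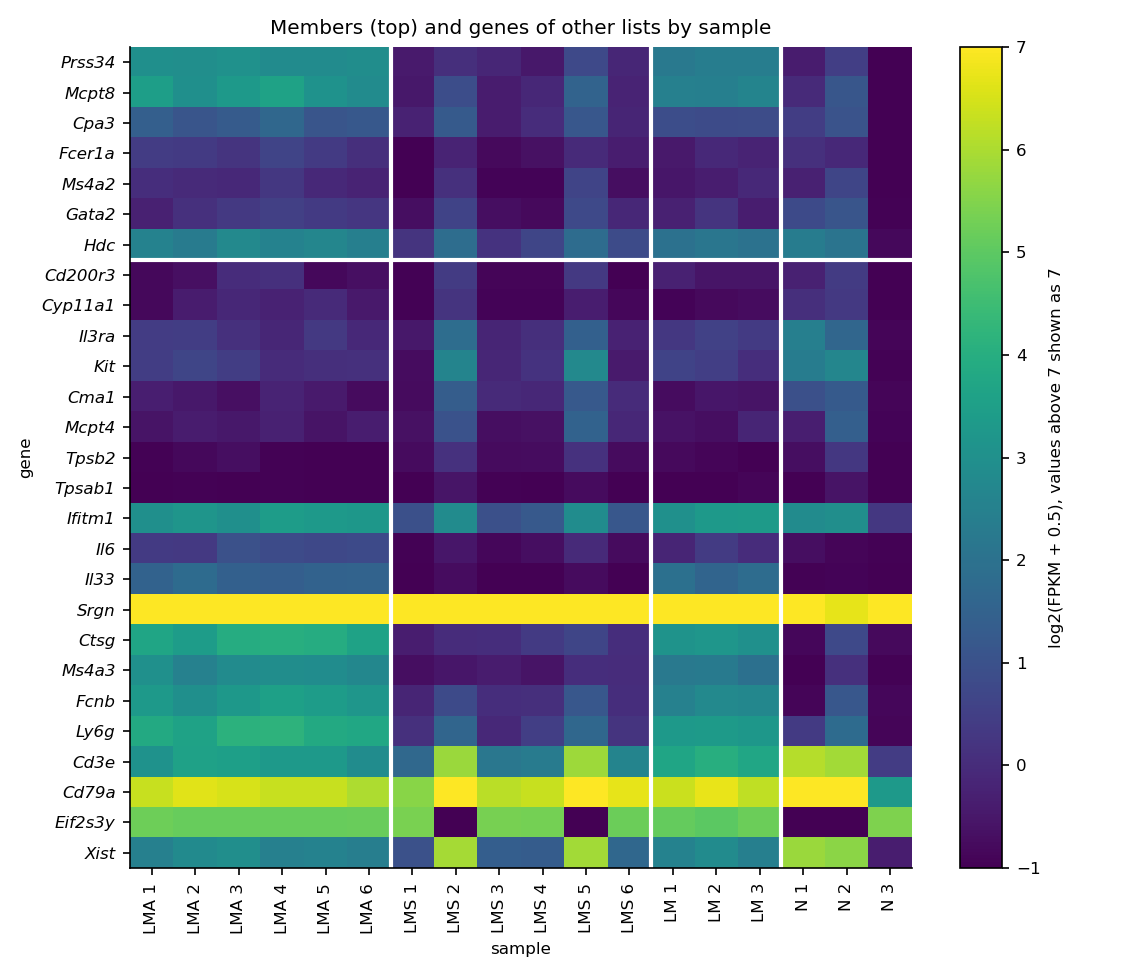
Rows are genes, the 7 members above the white line and genes of other lists below it, columns are the 18 samples ordered LMA, LMS, LM and N, and color is log2(FPKM + 0.5) with values above 7 shown as 7. Prss34, Mcpt8, Ms4a3, Ctsg, Fcnb and Ly6g share a pattern that is high in LMA and LM, while Kit, Cma1 and Mcpt4 reach their highest values in columns that lack Eif2s3y.

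Among 18 other genes that basophils use, 11 passed the filter. Of these, 4 rose relative to N in both LMA and LM, Il6, Ccl3, Ccl4 and Nfil3, and none was lower, beside 35.4% of all genes called in LMA against N and 25% in LM against N. Ifitm1 and Cd69 were higher in LMA than in LMS besides these. Macrophages also make Il6, Ccl3 and Ccl4. Ccl3 had 617 to 696 FPKM in LMA, 6.06 to 11.1 in N 1, N 2, LMS 2 and LMS 5 and 115 in N 3. The basophil surface gene Cd200r3 had 0.06 to 0.58 FPKM in LMA, 0.00 to 0.81 in LMS, 0.19 to 0.34 in LM and 0.00 to 0.81 in N. Il3ra, the interleukin 3 receptor chain, had 0.41 to 0.87 FPKM in LMA, 0.72 to 0.95 in LM and 2.21 to 4.99 in the 4 samples without Y-linked transcripts. The cytokine genes Il4 and Il13 had at most 0.13 and 0.08 FPKM in LMA.

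Of 23 signaling genes below FcεRI, all tested, 6 were higher and 6 lower in LMA than in N, beside 35.4% of all genes called in either direction, and 8 were higher and 1 lower in LMA than in LMS, beside 30.7%. The others were not called. Fcer1g, the γ chain that FcεRI shares with other Fc receptors of myeloid cells, was called in LMA, with differences of 1.52 from N (limma, adjusted p = 0.0156) and 1.48 from LMS (adjusted p = 0.00515), with 157 to 173 FPKM in LMA, 24.4 to 93.4 in LMS, 159 to 168 in LM and 31.6 to 104 in N. Gab2, an adaptor of the receptor, was higher by 2.10 in LMA against N, and Btk, a kinase also of B cells, was lower by a difference of -0.80. IgE heavy chain (Ighe) had 5.71 to 8.67 FPKM in LMA, 0.59 to 5.64 in LMS, 3.61 to 4.05 in LM and 0.06 to 6.29 in N. As an immunoglobulin segment it was not in the test of protein-coding genes.

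Of 17 cytokines and receptors that support basophils and mast cells, 13 were tested, and in LMA against N 2 were higher and 2 lower, beside 35.4% of all genes called. Il33, an alarmin that activates both cell types, rose most, by 2.48 in LMA and 2.73 in LM against N (limma, adjusted p = 1.88e-09 for LMA and 4.8e-09 for LM). It had 2.13 to 2.94 FPKM in LMA, 0.00 to 0.10 in LMS, 2.48 to 3.34 in LM and 0.01 to 0.03 in N, and neither LMA nor LM overlapped with LMS or N. Il18 was higher by 0.63 in LMA against N. Il3, the main growth cytokine of basophils, was listed at 0 in all 18 samples, and Il5 had at most 0.02 FPKM. Il1rl1, the receptor for interleukin 33, was lower in LMA than in LMS by a difference of -0.58 (adjusted p = 0.0398). Of 18 transcription factors named for these lineages with Gata2, all tested, 2 were higher and 3 lower in LMA than in N, no more often than all genes (35.4%). Cebpe, a granulocyte factor, and Spi1, a myeloid factor, were the 2 higher, and Runx1, Fli1 and Lyl1 were the 3 lower. Of 14 enzymes and receptors of histamine and lipid mediators, 7 were tested, and in LMA against N 1 was higher and 1 lower, beside 35.4% of all genes. Ptgs2, the inducible cyclooxygenase, was higher in LMA by 4.82 against N, Ptgs1 was lower, and the histamine receptor Hrh2 had 0.17 to 0.34 FPKM in LMA, 0.12 to 0.30 in LM and 1.13 to 2.36 in the 4 samples without Y-linked transcripts.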

How the data were processed

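Splenocyte RNA of 18 mouse samples was sequenced by the authors on a NovaSeq instrument. The deposited values are FPKM, which the authors derived from estimated read counts, in 1 table per sample. The submitters' notes name build mm10 and GATK 4.2, and no aligner or quantifier is named in the labels or the study's methods. The deposited tables list reference genes and assembled loci for the same reads. The authors' column headed TPM is used as a score in 1 alternative only, since the assembled loci alone sum to 1000000. The deposited coverage signal gave the aligned sequence per sample, and without counts no counting intervals were computed. The label protocols describe melanoma tumors and complexes carrying DOX or CpG, whereas the tissue and treatment labels and the study's methods name spleen and LPPC/MP, which were followed here.

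GENCODE M21 typed 47224 of the 47729 genes. Of 21620 protein-coding genes, the 11436 averaging 0.5 FPKM or more entered limma 3.58.1 in R 4.3.3 (lmFit, eBayes with trend) on log2(FPKM + 0.5), with all 18 samples and 4 groups in 1 fit, two-sided, Benjamini-Hochberg adjusted, at 0.05. The fit was tested on simulated data. Other values were computed in Python 3.11.15 with numpy 2.4.6 and pandas 2.3.3. Named are the 7 members, the 3 genes most like each, and list genes that were called or describe another cell type. The members and lists were chosen with earlier results of these data known. Neither the sample titles nor the study states that same-numbered samples of different groups are paired. Same-numbered LMS and LM samples deviated together (r = 0.22, 0.43 and 0.24 for 3 pairs), while the other comparisons each had a pair under 0.1. For LMS and N the values were -0.642, 0.885 and 0.906.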

Additional observations from a re-analysis of the deposited data

Results flagged for a closer look

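Prss34 in LMS 5, at 1.20 FPKM, stood apart from the other 5 LMS samples, which had 0.21 to 0.56 FPKM. LMS 5 and LMS 2, the next highest at 0.56 FPKM, are the LMS samples without Y-linked transcripts. The gap was 0.647 of the range of the group. Of 14 groups of member values examined in this way, 1 was flagged. Chance flags about 1 in 20 where the samples of a group are alike, and the LMS samples were not.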

How the results depend on the processing

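The rises of Prss34 and Mcpt8 in LMA against N and against LMS and their falls in LMS against LM stayed past the threshold under every alternative that kept more than 1 N sample. Their rises in LM against N did so under each of these but the fit of the 2 groups alone. In that fit 0 members were called in LM against N (52 of the 11436 genes) and 1 in LMA against LM (0.42% of all genes). Sample weights called 4 members in LMS against N (59.6% of all genes), 2 in LMA against LM (1.43%) and 5 in LMS against LM (69.3%), and turned LMS against N to -1.11 for Mcpt8 and -1.03 for Cpa3. Without N 1, N 2, LMS 2 and LMS 5, N is the single sample N 3, so only differences are given here. Gata2 then turned to 0.81 in LM against N and 1.17 in LMA against N, and for Hdc the difference of LMS from N turned to 1.28. In the set that leaves out N 3 and LMS 1, 3, 4 and 6, 5 members were called in LMA against N, beside 79.9% of all genes. Gata2 turned to 0.83 in LMS against LM. Leaving out 1 sample at a time gave 0 to 2 members in LMS against N, the 2 without N 3, where 3830 of the 11436 genes were called. The cause of these shifts was not tested.

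All genes called in LM against N were 52 in the fit of these 2 groups alone, against 2864. With N 3 left out, the genes called between LMS and N were 3830, against 0. Scaling by median of ratios moved the share of higher genes among calls to 55% in LMA against N, against 38.3%, and shifted the median of all genes by 0.11.

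With the replicate number as a block, 2 members were called in LMA against N, beside 3236 of the 11436 genes. Cpa3 (1.10, adjusted p = 0.0798) was lost, and no other count of members changed. The low level of Fcer1a and Ms4a2, under 0.5 FPKM on average, limits what can be compared. Values also depend on how isoforms were assembled. In the assembled locus, Gata2 in LM 1 has 0.63 FPKM, against 0.33 as listed, Cpa3 in LMS 1 has 1.05, against 0.35, and Ms4a2 in LMA 4 has 0.37, against 0.72. With assembled loci, Cpa3 in LMA against LMS was lost (adjusted p = 0.0545) and Hdc in LMA against N was called (adjusted p = 0.0397).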
